A study of Mus musculus with 200 samples.

Results

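Ssrp1 knockout epiblast libraries were compared with the control epiblast libraries prepared in the same batch. The comparison holds 3 knockout and 3 control libraries out of 148 in a knockout screen and 200 in the whole series, and the members were taken from the batch, tissue, genotype and stage that the labels give. The knockout embryos carry a complete knockout of Ssrp1 made with C-CRISPR, in which several guide RNAs cut one gene in the zygote so that the embryos can be used directly, and the controls are labelled wild type. Embryos of both groups were cultured in vitro through implantation stages and the epiblast was collected at E5.0. Polyadenylated RNA of about 10 to 100 cells per library was amplified for 17 cycles with the Smart-seq2 protocol, which copies transcripts along their whole length. The labels call the 3 libraries of a group biological replicates but do not tie them to embryos. P-values therefore measure a spread between libraries, pooled over the groups of the screen unless a fit of fewer libraries is named. The first batch also holds knockouts of Nelfb, Snai1, Ss18 and Aurkb, and the 9 libraries of Nelfb, Snai1 and Ss18 served as a second reference.

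SSRP1 and SUPT16 together form FACT, a histone chaperone that takes H2A-H2B dimers off nucleosomes and puts them back as polymerases pass, and it acts in transcription and in DNA replication. At the stage studied the epiblast, which gives rise to the body, lies against the extraembryonic ectoderm of the trophoblast lineage and is wrapped by visceral endoderm. Parietal endoderm, the other derivative of primitive endoderm, lays down a thick basement membrane of laminin and type IV collagen. Trophoblast giant cells secrete hormones of the prolactin family, whose genes lie in a cluster on mouse chromosome 13.

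The prolactin family held both the deepest falls and some of the steepest rises of the comparison, so the 250 bases upstream of the start sites of 5 of its genes are shown. They are RefSeq sequences of the GRCm38.p6 build, 5′ to 3′ on the strand of the gene. Prl3d2, Prl3d3 and Prl5a1 fell and Prl7a2 and Prl2a1 rose. Capitals mark TGANTCA, where N is any base. This pattern is looser than the AP-1 site, whose middle base is C or G. It reads the same on both strands and was searched with TATAAA and AGATAA.

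Prl3d2 (chr13:27121445-27121694, plus strand): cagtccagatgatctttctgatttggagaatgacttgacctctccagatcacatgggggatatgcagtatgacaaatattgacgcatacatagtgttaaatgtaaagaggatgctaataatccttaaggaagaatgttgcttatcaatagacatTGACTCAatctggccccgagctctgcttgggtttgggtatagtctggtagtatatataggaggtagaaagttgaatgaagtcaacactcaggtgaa
Prl3d3 (chr13:27156544-27156793, plus strand): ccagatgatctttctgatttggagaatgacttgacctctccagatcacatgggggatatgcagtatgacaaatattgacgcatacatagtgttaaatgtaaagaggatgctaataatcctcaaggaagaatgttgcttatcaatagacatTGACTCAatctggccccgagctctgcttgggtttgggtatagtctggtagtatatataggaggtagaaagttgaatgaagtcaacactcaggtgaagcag
Prl5a1 (chr13:28142234-28142483, plus strand): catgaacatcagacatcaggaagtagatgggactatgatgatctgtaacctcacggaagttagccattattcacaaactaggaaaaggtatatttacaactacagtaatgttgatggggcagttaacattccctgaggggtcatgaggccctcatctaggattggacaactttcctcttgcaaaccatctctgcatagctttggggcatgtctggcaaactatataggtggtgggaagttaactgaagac
Prl7a2 (chr13:27668037-27668286, minus strand): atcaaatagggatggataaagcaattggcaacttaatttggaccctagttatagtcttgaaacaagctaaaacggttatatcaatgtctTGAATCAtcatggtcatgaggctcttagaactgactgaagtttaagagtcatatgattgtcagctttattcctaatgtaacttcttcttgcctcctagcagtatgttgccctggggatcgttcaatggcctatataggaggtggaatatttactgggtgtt
Prl2a1 (chr13:27801405-27801654, plus strand): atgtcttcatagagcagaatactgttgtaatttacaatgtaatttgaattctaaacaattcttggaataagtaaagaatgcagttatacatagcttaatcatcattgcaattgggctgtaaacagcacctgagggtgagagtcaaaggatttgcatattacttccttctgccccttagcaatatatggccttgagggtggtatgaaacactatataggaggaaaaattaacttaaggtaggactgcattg

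TGANTCA stood 96 bases before the start of Prl3d2, 100 bases before that of Prl3d3 and 161 bases before that of Prl7a2. It was therefore present upstream of 2 falling genes and 1 rising gene, and 6.7% of 32536 windows of the same length over all genes held it. Its middle base was C in Prl3d2 and Prl3d3 and A in Prl7a2, so the Prl7a2 stretch does not match the AP-1 sequence. Binding to these stretches was not tested. TATAAA and AGATAA, which occurred in 12.3% and 10.0% of those windows, were not in these 5 windows on either strand. The windows of Prl3d2 and Prl3d3 were identical at 245 of 246 bases once offset by 4 bases. Their transcripts were not compared, so whether reads are shared between these genes is not known. The other pairs were identical at 32.6% to 39.3% of bases at their best offset.

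Values are TPM, transcript abundances per length scaled to a fixed total per library, and a log2 change is the knockout mean minus the control mean on the log2(TPM + 1) scale, which understates changes of low genes. The control libraries correlated at 0.973 to 0.974 with each other, the knockout libraries at 0.927 to 0.928, and a knockout with a control library at 0.932 to 0.935, so knockout libraries were no more alike among themselves than to controls. Among 410 transcripts averaging at least 500 TPM, the median coefficient of variation was 3.34% in controls and 7.09% in knockouts. Between 10167 and 10270 genes reached 1 TPM in controls and between 10366 and 10426 in knockouts, and the 45S ribosomal RNA locus Rn45s stood at 6292 to 7245 and 11090 to 12090 TPM. The median gene was 0.20 (log2) higher in the knockouts, so changes are to be read against that shift. Read counts were not used here, so depth is unknown.

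The epiblast label was only partly borne out by defining markers. Control libraries held 23.0 to 33.9 TPM of Pou5f1, 2.96 to 7.39 of Sox2 and 0.305 to 1.96 of Nanog, beside 585 to 670 TPM of Utf1 and 229 to 257 of Tdgf1. The same libraries held 1651 to 1686 TPM of Krt18 and 508 to 542 of Krt8, keratins of trophoblast, with 75.4 to 98.3 TPM of the extraembryonic ectoderm factor Elf5. Control libraries of the other batches varied widely. Over 26 of them the lowest, median and highest values were 0.515, 43.0 and 586.1 TPM for Pou5f1, 0, 3.00 and 7.06 TPM for Sox2, 241.5, 1822 and 2884 TPM for Krt18, and 0, 104.2 and 177.6 TPM for Elf5. Summed over marker lists, 10 epiblast markers stood at 1131 to 1191 TPM in controls and 1182 to 1272 in knockouts. The 18 primitive endoderm markers stood at 979 to 1048 against 1826 to 1950, of which Apoe alone was 633 to 693 against 1199 to 1329. The 14 trophectoderm and extraembryonic ectoderm markers stood at 3117 to 3360 against 4951 to 5340, carried mostly by keratins. Blood markers summed to 18.5 to 34.4 against 26.3 to 30.1, with Hbb-bs, Ptprc, Lyz2 and Tyrobp at 0 in all 6 libraries, and decidua and stroma markers to 14.7 to 16.5 against 2.80 to 12.3, with Col3a1, Lum, Postn and Prl8a2 at 0. The share of other cell types and its part in the results below was not tested, and in bulk RNA fewer cells of a type and less RNA per cell cannot be told apart.

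The Ssrp1 transcript was not measurably lower in the knockouts. Ssrp1 (chr2:85037234-85047109, mm10, plus strand) stood at 54.9, 70.1 and 67.7 TPM in controls and 69.1, 46.2 and 73.1 TPM in knockouts. The groups overlapped, and the log2 change was -0.05 ± 0.21 (SE; limma adjusted p = 0.936). A frameshifted transcript can persist, so RNA does not measure the loss of protein, and the label is not checked by these values. Its partner Supt16 stood at 141.6, 142.5 and 141.2 TPM in controls and 105.9, 103.5 and 99.3 TPM in knockouts. The Supt16 values did not overlap, but the log2 change of -0.46 ± 0.26 did not pass (limma adjusted p = 0.352, and 0.0313 when only the 6 compared libraries were fitted).

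Of 10515 genes tested, 696 (6.62%) passed at an adjusted p under 0.05 in limma, 464 (4.41%) higher and 232 (2.21%) lower in the knockouts. Among them 255 rose and 68 fell by at least 1 on the log2 scale, and 20 had groups that overlapped. The split between directions depended on scaling. The higher share was 66.7% as deposited, 51.1% after quantile normalization (352 higher, 337 lower) and 19.1% with each library centred on its median (160 higher, 677 lower). The total fell to 444 without control replicate 1, 461 without control replicate 2 and 453 without knockout replicate 1.

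**Figure D1:**
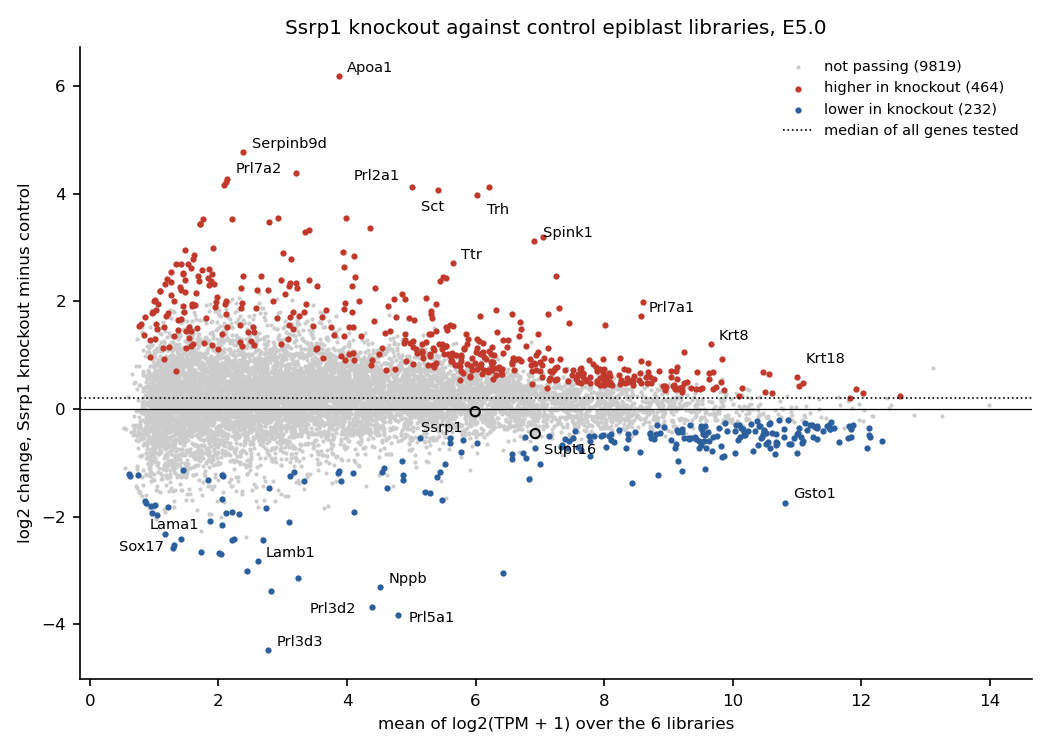
Each point is 1 of 10515 genes, with its mean log2(TPM + 1) over 6 libraries on the horizontal axis and the log2 change of Ssrp1 knockout minus control on the vertical axis; red and blue points passed at an adjusted p under 0.05 and circles mark Ssrp1 and Supt16. Apoa1 is the highest called point at 6.19 and Prl3d3 the lowest at -4.49, and many abundant transcripts lie slightly below 0.

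Prolactin family genes moved in both directions. The family was chosen after its values were seen. Of 26 members in the table, 9 were tested, of which 4 rose and 3 fell. Prl7a2 and Prl2c2 reached the tested level in 3 libraries only with the knockouts, and Prl3d3 only with the controls. The counts are therefore not read against the 4.41% and 2.21% of all genes called higher and lower. The other 17 stood at 3.61 TPM or less in each library and 11 of them at 0 in all 6. Prl3d3, a copy of the placental lactogen I gene expressed by giant cells, stood at 45.3, 21.3 and 32.2 TPM in controls and 0.483, 0 and 1.04 TPM in knockouts, and fell by 4.49 ± 0.44 (SE, log2; limma adjusted p = 1.65e-14). Its neighbour Prl3d2 stood at 114.2, 44.8 and 79.0 TPM against 5.30, 3.50 and 5.99 TPM, and fell by 3.69 (adjusted p = 1.37e-08). The third copy, Prl3d1, spread more, at 388.8, 92.4 and 153.9 TPM against 76.5, 60.6 and 83.0 TPM, and did not pass (adjusted p = 0.318). No knockout library reached the lowest control library for any of these 3 copies.

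Prl5a1 stood at 112.1, 100.3 and 100.4 TPM in controls and 10.9, 1.60 and 11.8 TPM in knockouts, and fell by 3.84 ± 0.53 (adjusted p = 2.31e-08). Of the rising members, Prl7a2, Prl2a1 and Prl7a1 lay between Prl3d3 and Prl5a1 in the cluster. Prl7a2, which encodes a prolactin-like protein, was listed at 0 in all controls and at 23.5, 24.9 and 10.3 TPM in knockouts; it was also listed at 0 in the 9 libraries of the other knockouts (adjusted p = 2.89e-49 in the shared fit and 0.00027 over the 6 libraries alone). Prl2a1 stood at 9.23, 5.30 and 6.19 TPM against 137.1, 182.5 and 97.4 TPM and rose by 4.13 ± 0.69 (adjusted p = 3.75e-06). Prl7a1 was already abundant at 207.7, 197.0 and 221.5 TPM and stood at 670.7, 728.6 and 668.4 TPM in knockouts, a rise of 1.72 (adjusted p = 0.00982, 0.0513 with libraries centred on their median, and 0.316 when only batch 1 was fitted). Prl2c2, at most 1.03 TPM in controls and 2.18 to 10.5 TPM in knockouts, rose by 1.94 (adjusted p = 0.00176, 0.0631 without knockout replicate 2, 0.0542 over the 6 libraries alone, and 0.191 when only batch 1 was fitted). Prl2c5 differed by 0.04 between groups that overlapped (adjusted p = 0.983).

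**Figure D2:**
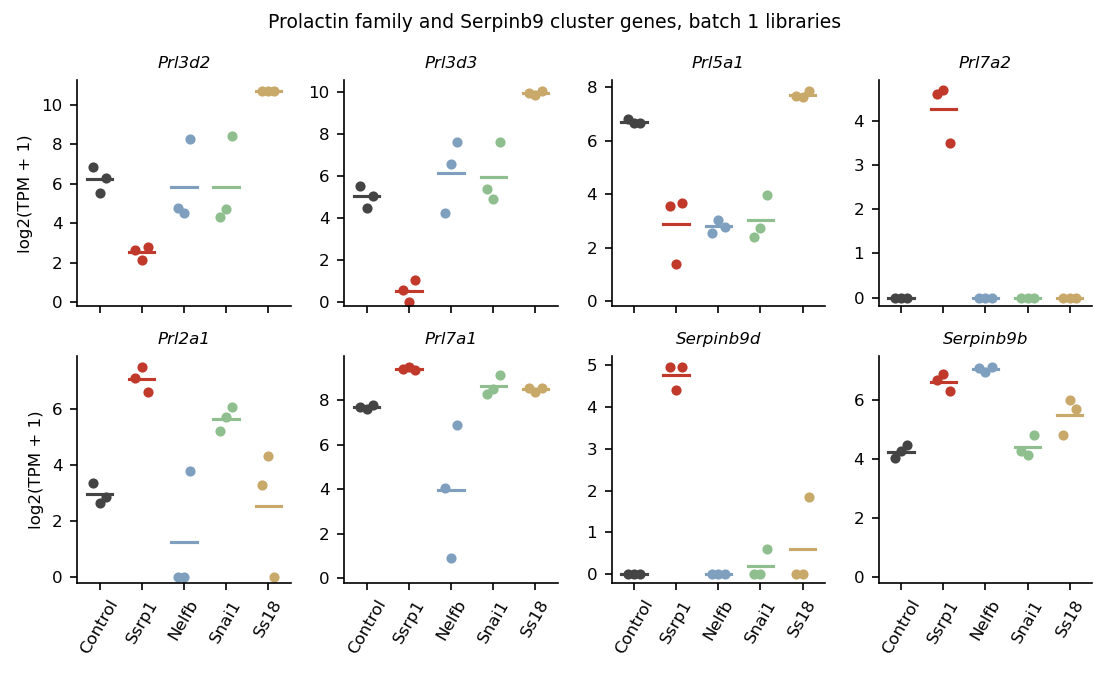
Each panel gives 1 gene as log2(TPM + 1) in the 3 libraries of controls and of the Ssrp1, Nelfb, Snai1 and Ss18 knockouts, with a bar at the group mean. Prl3d2, Prl3d3 and Prl5a1 lie below the controls in the Ssrp1 knockouts, and Prl7a2 and Serpinb9d are above 1 TPM in each Ssrp1 knockout library and at 0 in each control library.

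The Serpinb9 cluster, granzyme inhibitor genes side by side on chromosome 13 (chr13:33003250-33496004, mm10) of which several are placental, was also chosen after its values were seen. Of 8 members 7 were tested and 6 were called higher, but Serpinb9d, Serpinb9f and Serpinb9h were listed at 0 in the controls and entered the test only through the knockouts. The count is therefore not read against the 4.41% of all genes called higher. With 1 library left out 5 or 6 were called higher, and 4 over the 6 libraries alone or with a pseudocount of 0.1. Serpinb9d was listed at 0 in the controls and at 29.9, 20.2 and 30.1 TPM in knockouts (limma adjusted p = 6.74e-32). Serpinb9f was likewise listed at 0 and stood at 16.2, 9.70 and 7.21 TPM (adjusted p = 1.44e-08). Serpinb9b stood at 15.5, 18.2 and 21.2 TPM against 101.8, 118.8 and 79.8 TPM and rose by 2.38 ± 0.40 (adjusted p = 3.74e-06). Serpinb9 itself, the best studied granzyme B inhibitor, stood at 0 to 3.73 TPM against 2.72 to 5.79 TPM and did not pass (adjusted p = 0.365). The members are close copies, so reads may be split between them.

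Of 21 tested trophectoderm and extraembryonic ectoderm markers, 7 rose, beside 4.41% of all genes, 0 fell and 14 did not pass, with a median log2 change of 0.56 against 0.20 over all genes. With libraries centred on their median, 3 rose and 1 fell, and the median was 0.22. Sct, which encodes the hormone secretin, stood at 10.2, 9.25 and 9.01 TPM in controls and 172.3, 176.7 and 171.9 TPM in knockouts, a rise of 4.06 ± 0.41 (limma adjusted p = 1.04e-13). Krt8 stood at 541.2, 541.7 and 507.5 TPM against 1177, 1192 and 1319 TPM and rose by 1.21 ± 0.13 (adjusted p = 1.33e-12). Its partner keratin Krt18 stood at 1651, 1664 and 1686 TPM against 2577, 2346 and 2605 TPM and rose by 0.59 (adjusted p = 1.49e-05, and 0.219 after centring). In both keratins each knockout library was above each control library.

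Transcription factors of the lineage did not pass in the fit of all libraries. Elf5 stood at 75.4, 76.8 and 98.3 TPM against 141.7, 98.2 and 126.8 TPM (adjusted p = 0.174), Eomes at 43.1 to 53.9 against 40.3 to 56.2 TPM (adjusted p = 0.991), and Tfap2c at 36.8 to 49.6 against 60.9 to 74.3 TPM (adjusted p = 0.131, and 0.0443 over the 6 libraries alone). Hand1, which drives giant cell differentiation, stood at 105.5, 123.2 and 127.7 TPM against 211.5, 191.0 and 206.7 TPM (adjusted p = 0.0722), and passed when only batch 1 was fitted (0.0132), over the 6 libraries alone (0.00324) and without batch 7 (0.0475). Tfap2c and Hand1 did not overlap between groups. Plac1, a placental surface protein, stood at 158.8 to 210.7 against 340.8 to 356.8 TPM and passed (adjusted p = 0.00691), but not without control replicate 3 (adjusted p = 0.0578) or after centring (0.164).

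Among the other large rises, Trh, the precursor of thyrotropin-releasing hormone, stood at 13.2, 13.2 and 20.7 TPM in controls and 267.4, 239.5 and 258.1 TPM in knockouts, a rise of 3.97 ± 0.50 (limma adjusted p = 1.11e-09). The secreted proteases Klk6 and Klk7, neighbours on chromosome 7, were listed at 0 in the controls and stood at 15.3 to 20.7 and 4.35 to 12.1 TPM in knockouts (adjusted p = 3.54e-09 and 5.06e-07). Spink1, a trypsin inhibitor named after its values were seen, stood at 39.4, 41.0 and 39.7 TPM against 301.1, 450.4 and 328.5 TPM (log2 change 3.11, adjusted p = 1.1e-11). Cidea, a lipid droplet protein, was listed at 0 in the controls and at 18.1, 11.6 and 23.0 TPM in knockouts (adjusted p = 5.72e-09). Soat2, which esterifies cholesterol, stood at 0 to 0.731 TPM against 11.2 to 17.2 TPM (adjusted p = 0.000243). Ifi27, named for its interferon inducibility, stood at 0 to 2.58 TPM against 22.3 to 28.7 TPM (adjusted p = 9.01e-05), and Elobl, related to a subunit of elongin, at 2.49 to 4.69 against 46.3 to 63.5 TPM (adjusted p = 0.000381, and 0.0534 with a pseudocount of 0.1). In each of these genes the knockout libraries lay above the controls.

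Of 24 tested primitive endoderm markers, 4 rose and 4 fell, with a median log2 change of -0.17. Apoa1 reached the tested level in 3 libraries only with the knockouts, and Sox17, Lama1 and Lamb1 only with the controls. The counts are therefore not read against the 4.41% and 2.21% of all genes called higher and lower. The rising ones, Apoa1, Ttr, Apoe and Dab2, are high in visceral endoderm, and the falling ones are Sox17, an early endoderm factor, the laminin chains Lama1 and Lamb1, and Fst, an activin antagonist. Fst did not pass without any 1 control replicate (adjusted p = 0.0501, 0.081 and 0.14), without knockout replicate 1 (0.131) or 2 (0.181), or with a pseudocount of 0.1 (0.143). After quantile normalization 4 rose and 7 fell, and after centring 4 rose and 9 fell.

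Apoa1, the main protein of high density lipoprotein, stood at 0.273, 0.741 and 1.27 TPM in controls and 141.7, 100.0 and 135.2 TPM in knockouts, and rose by 6.19 ± 0.59 (SE, log2; limma adjusted p = 5.63e-15), the largest rise among the genes named by rule. Apoa4, its neighbour on chromosome 9, was listed at 0 in the controls and at 4.09, 8.09 and 26.5 TPM (adjusted p = 6.26e-08, and 0.00548 over the 6 libraries alone). Apom stood at 4.67, 10.6 and 1.64 TPM against 55.7, 40.9 and 30.6 TPM (log2 change 2.92, adjusted p = 0.000328). Ttr, the thyroxine and retinol carrier, stood at 18.2, 23.7 and 14.9 TPM against 106.5, 142.2 and 135.3 TPM (log2 change 2.71 ± 0.39, adjusted p = 5.51e-08). Apoe rose by 0.92 (adjusted p = 1.47e-09). Dab2, an endocytic adaptor, stood at 22.3 to 31.8 against 64.6 to 100.1 TPM (adjusted p = 0.000677, and 0.063 with a pseudocount of 0.1).

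Apolipoproteins as a family, chosen after their values were seen, had 4 of 9 tested members higher and 0 lower. Apoa1 and Apoa4 reached the tested level in 3 libraries only with the knockouts. The count is therefore not read against the 4.41% of all genes called higher. Apoc1 and Apoc2 did not pass, at 245.3 to 247.9 against 190.8 to 250.3 TPM and 23.8 to 28.6 against 22.0 to 23.4 TPM. Other proteins of the visceral endoderm's absorptive surface did not pass in the fit of all libraries either. Cubn stood at 5.83 to 6.10 against 9.02 to 12.7 TPM (adjusted p = 0.227), Amn at 9.12 to 11.2 against 20.2 to 37.4 TPM (adjusted p = 0.341, and 0.023 over the 6 libraries alone) and Lrp2 at 2.91 to 5.14 against 3.58 to 13.2 TPM (adjusted p = 0.104, 0.0477 without batch 7 and 0.00791 without knockout replicate 3). Cubn and Amn did not overlap between groups.

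Lamb1, a chain of the early embryonic laminin, stood at 12.8, 17.3 and 16.0 TPM in controls and 0.965, 2.23 and 0.890 TPM in knockouts, and fell by 2.83 ± 0.48 (limma adjusted p = 5.92e-06). Lama1, its partner chain, stood at 7.15, 6.36 and 6.11 TPM against 1.08, 1.17 and 0.255 TPM and fell by 2.08 (adjusted p = 6.11e-06). Lamc1, the third chain, stood at 7.48 to 8.84 against 4.14 to 12.4 TPM and did not pass (adjusted p = 0.815), nor did Col4a1, at 8.81 to 9.74 against 3.75 to 7.64 TPM (adjusted p = 0.136), which passed as lower after quantile normalization (0.00382) and centring (0.00874). Sox17 stood at 6.07, 6.06 and 3.13 TPM against 0, 0.0884 and 0 TPM (log2 change -2.52, adjusted p = 6.77e-05). Pth1r, the parathyroid hormone receptor that parietal endoderm carries, stood at 14.5, 10.2 and 6.23 TPM against 0.793, 0 and 3.35 TPM (log2 change -2.44, adjusted p = 9.01e-05). Gata6 stood at 2.77 to 4.04 against 0.201 to 1.83 TPM and did not pass (adjusted p = 0.152), but passed as lower after quantile normalization (0.0282) and centring (0.0258). Sparc stood at 244.5 to 282.1 against 205.8 to 222.0 TPM and passed only after centring (adjusted p = 0.311 as deposited and 0.00182 centred). In Lamb1, Lama1, Sox17, Pth1r and Gata6 each knockout library lay below each control library.

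**Figure D3:**
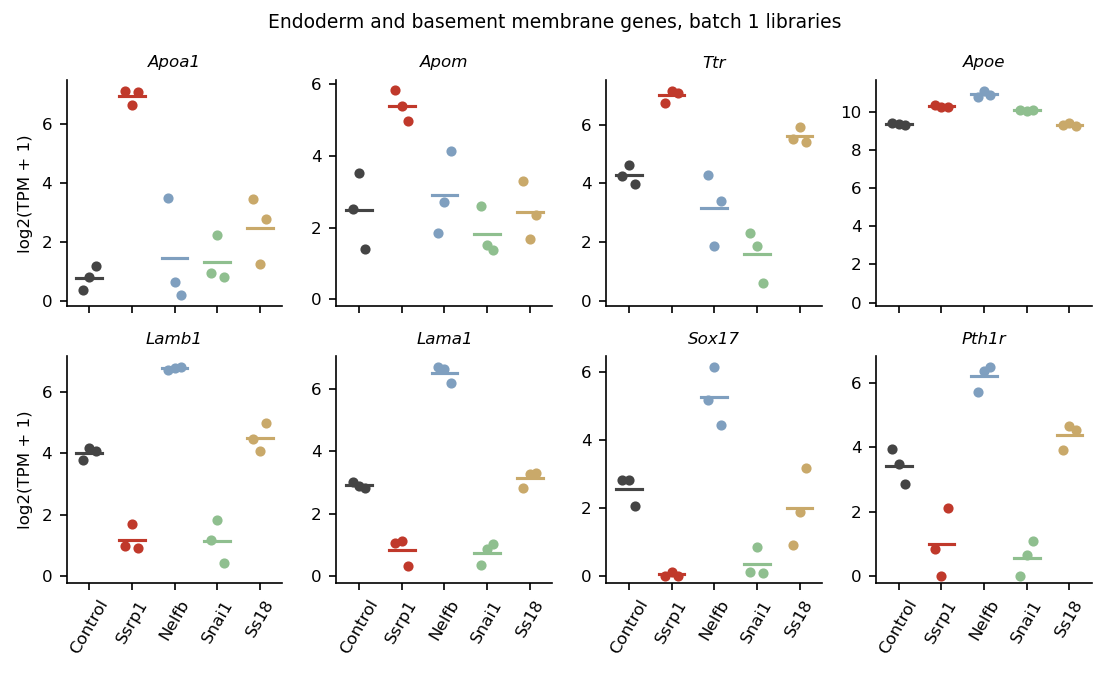
Each panel gives 1 gene as log2(TPM + 1) in the 3 libraries of each batch 1 group, with a bar at the group mean. Apoa1, Apom and Ttr are highest in the Ssrp1 knockouts, whereas Lamb1, Lama1, Sox17 and Pth1r lie below the controls in the Ssrp1 and Snai1 knockouts and far above them in the Nelfb knockouts.

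Further falls by the naming rule were S100g, a calcium binding protein, at 12.3, 28.9 and 29.1 TPM in controls and 0, 9.46 and 0 TPM in knockouts (limma adjusted p = 6.63e-08), and Nppb, a natriuretic peptide, at 82.1, 70.7 and 61.9 TPM against 12.9, 0.654 and 15.6 TPM (adjusted p = 3.32e-07). Retreg1, a receptor for the turnover of endoplasmic reticulum, stood at 7.29 to 13.3 against 0.136 to 0.985 TPM (adjusted p = 3.48e-07), and Mipol1 at 6.43 to 15.7 against 0.00312 to 2.22 TPM (adjusted p = 0.00314). Over the 6 libraries alone the limma adjusted p was 0.0257 for S100g, 0.015 for Nppb, 0.00403 for Retreg1 and 0.0131 for Mipol1. In these 4 genes no knockout library reached the lowest control. Snord65 and Ly96 passed at adjusted p = 0.00821 and 0.0249 but did not pass without knockout replicate 3 (adjusted p = 0.0834 and 0.249). Snord65 also missed the threshold when only batch 1 was fitted (adjusted p = 0.169), without control replicate 1 (0.0624) and without knockout replicate 2 (0.075). Ly96 missed it with a pseudocount of 0.1 (0.116), without each control replicate (0.0662 to 0.0807) and without knockout replicate 1 (0.0797).

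Some abundant transcripts fell. Gsto1, a glutathione transferase, and the metallothioneins Mt1 and Mt2, which bind zinc and copper, were named after their values were seen. Gsto1 stood at 3271, 3284 and 3285 TPM in controls and 991.0, 893.4 and 1061 TPM in knockouts, and fell by 1.74 ± 0.12 (limma adjusted p = 1.99e-24). Mt1 stood at 931.9, 871.4 and 840.1 TPM against 317.9, 480.9 and 403.6 TPM (adjusted p = 3.41e-14) and Mt2 at 726.2, 707.3 and 670.9 TPM against 271.2, 313.1 and 314.1 TPM (adjusted p = 1.78e-14). The groups of all 3 genes were far apart relative to their spread.

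Transcripts of the cytosolic ribosome were lower. Of 84 tested ribosomal protein genes of 85 in the table, 68 fell and 0 rose, beside 2.21% of all genes that fell, with a median log2 change of -0.43. The family was chosen after its values were seen. Ribosomal proteins took 19.3%, 18.8% and 18.7% of TPM in the controls and 13.5%, 14.8% and 14.3% in the knockouts. The number that fell was 50 without knockout replicate 1, 40 after quantile normalization, where 2 rose, and 78 after centring.

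Rpl29 fell most, at 1201, 1073 and 1085 TPM against 480.4, 535.1 and 536.6 TPM (log2 change -1.11, limma adjusted p = 4.94e-16). Rps4x, the X-linked small subunit protein, stood at 2365, 2401 and 2507 TPM against 1457, 1518 and 1629 TPM (adjusted p = 1.47e-09). Each knockout library lay below each control for both genes. Rpl39l, a testis-enriched copy, had the highest value of the family, a log2 change of 0.16 that did not pass. Short transcripts moved in the same direction to a smaller extent. The 762 other genes of up to 1000 bases had a median log2 change of -0.09. Of these 53 fell (6.96%, beside 2.21% of all genes) and 42 rose, beside 4.41%. Without ribosomal protein genes the median was -0.255 up to 500 bases, -0.055 from 500 to 1000 and 0.184 from 1000 to 2000. Of 48 other genes at least as abundant as the median ribosomal protein gene, 7 fell and 7 rose, beside 2.21% and 4.41% of all genes. Both directions were thus called more often among these 48 than among all genes. Their median was -0.04, against 0.20 over all genes. The part of transcript length or abundance in the result was not tested.

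Some nucleolar and snoRNA host transcripts fell as well. Among 17 tested snoRNA host transcripts of 18, a family chosen after its values were seen, 6 fell, beside 2.21% of all genes, and 0 rose. Snhg6 stood at 530.9, 562.8 and 586.1 TPM against 162.3, 269.3 and 225.5 TPM (log2 change -1.38 ± 0.19, limma adjusted p = 1.37e-08). Gas5 stood at 764.5, 815.8 and 796.0 TPM against 354.0, 441.7 and 427.7 TPM (log2 change -0.96, adjusted p = 1.47e-09), and Snhg4 at 170.2 to 182.3 against 63.2 to 82.1 TPM (adjusted p = 7.13e-07). Of 26 ribosome biogenesis genes, 3 fell and 1 rose (15.4%, beside 6.62% of all genes). Npm1, the nucleolar histone chaperone nucleophosmin, stood at 5243, 5399 and 5558 TPM against 3844, 3714 and 3703 TPM and fell by 0.52 ± 0.09 (adjusted p = 2.32e-05). Ncl, nucleolin, stood at 331.6, 345.6 and 350.7 TPM against 257.5, 279.5 and 249.9 TPM and passed (adjusted p = 0.0145) but not without control replicate 2 or 3 or knockout replicate 1 or 3 (adjusted p up to 0.0759).

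**Figure D4:**
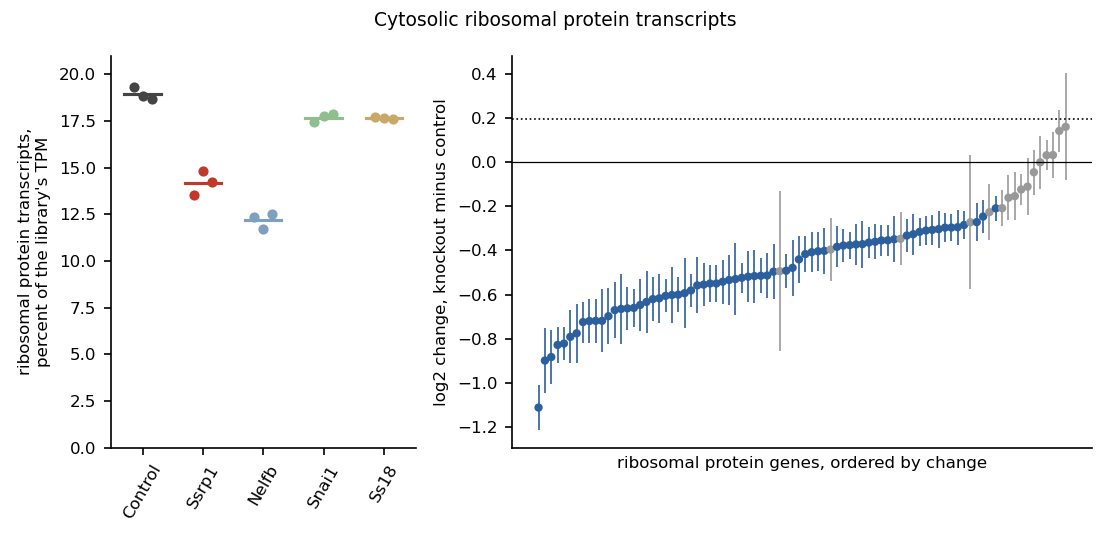
The left panel gives the percent of each library's TPM in 84 ribosomal protein genes for 5 batch 1 groups, and the right panel the log2 change of each gene with its SE, in blue where it passed, beside the median of all genes as a dotted line. The share is 13.5% to 14.8% in Ssrp1 knockouts and 18.7% to 19.3% in controls, and 80 of the 84 genes lie below 0.

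Of 27 genes of FACT and other histone chaperones, 2 rose and 2 fell (14.8%, beside 6.62% of all genes), with a median log2 change of -0.05. Daxx, which deposits the variant histone H3.3, stood at 8.23, 8.91 and 10.1 TPM against 34.8, 25.4 and 24.7 TPM and rose by 1.53 ± 0.34 (limma adjusted p = 0.000884). Rbbp7, a histone binding protein, passed at 702.1 to 772.4 against 952.5 to 1020 TPM (adjusted p = 0.0126), but not without control replicate 2 (adjusted p = 0.0835) or knockout replicate 3 (0.0601), nor after centring (0.871). Of 26 chromatin remodellers 0 rose and 0 fell, and of 28 elongation and pausing factors 1 rose (3.6%), Paf1, which did not pass without control replicate 1 (adjusted p = 0.207) or over the 6 libraries alone (0.0547). Of 20 histone genes 2 rose and 1 fell, a larger share than the 6.62% of all genes. A wider family of replication-dependent and variant histones, chosen after its values were seen, did not show this excess. Among its tested members 2 rose and 2 fell, a share near that of all genes. H2aj, an H2A variant, stood at 228.8, 201.6 and 184.5 TPM against 140.6, 127.1 and 118.3 TPM (log2 change -0.67, adjusted p = 6.19e-05), and H3f3b, which encodes H3.3, at 3388 to 3402 against 4264 to 4523 TPM (log2 change 0.38, adjusted p = 0.00525, and 0.939 after centring). Among the 27 Polycomb subunits 2 rose and 0 fell (7.4%, near the 6.62% of all genes), and neither passed without control replicate 2.

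Of 14 core pluripotency genes 0 rose and 0 fell, and of 13 naive genes 2 rose and 0 fell (15.4%), beside 6.62% of all genes. Pou5f1 stood at 23.0, 33.9 and 27.5 TPM against 28.4, 26.7 and 39.1 TPM (limma adjusted p = 0.881) and Sox2 at 2.96, 5.09 and 7.39 TPM against 6.55, 16.1 and 10.8 TPM (adjusted p = 0.256), with overlapping groups in both. Nanog stood at 0.305, 1.09 and 1.96 TPM against 4.47, 2.198 and 22.7 TPM and passed at 0.0224, with an adjusted p of 0.386 without knockout replicate 3, which held the highest value, 0.16 without control replicate 1 and 0.0615 without control replicate 2. Fitted over the 6 libraries alone, Nanog did not pass (adjusted p = 0.118). Tdh, threonine dehydrogenase of the naive state, stood at 44.7, 61.7 and 57.1 TPM against 139.7, 176.4 and 94.8 TPM and rose by 1.28 ± 0.28 (adjusted p = 0.000818).

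Signalling genes of the later epiblast and anterior visceral endoderm stood at low levels. Cer1, a secreted Nodal and BMP antagonist, was listed at 0 in the controls and stood at 1.43, 1.94 and 7.89 TPM (limma adjusted p = 0.000608, and 0.0558 without knockout replicate 3). Fgf8 stood at 0, 0.406 and 0.265 TPM against 12.2, 2.60 and 4.44 TPM (adjusted p = 0.00747, and 0.122 without knockout replicate 1). Nodal stood at 3.70, 3.30 and 6.90 TPM against 11.3, 12.3 and 22.3 TPM and did not pass (adjusted p = 0.0867, but 0.0347 over the 6 libraries alone and 0.0475 without batch 7). All 3 genes were higher in each knockout library than in each control, and the levels of Cer1 and Fgf8 differed several fold between knockout libraries.

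Of 24 tested lysosomal and autophagy genes, 7 rose, beside 4.41% of all genes, and 0 fell, with a median log2 change of 0.59. With 1 library left out 4 or 5 rose (4 without control replicate 2), and 4 rose after quantile normalization and after centring. Ctsl, a lysosomal protease, stood at 269.0, 272.7 and 290.2 TPM against 582.9, 488.4 and 487.1 TPM (log2 change 0.90 ± 0.13, limma adjusted p = 7.99e-08). Gabarapl2, which coats autophagosomes, stood at 429.2, 420.6 and 432.0 TPM against 720.3, 747.2 and 738.5 TPM (log2 change 0.78, adjusted p = 3.36e-06). Over all cathepsins, a family chosen after its values were seen, 6 of 9 tested rose, beside 4.41% of all genes. Among them were Ctsh at 16.2 to 23.6 against 70.5 to 97.6 TPM (adjusted p = 1.99e-05) and Ctsc at 34.7 to 47.1 against 92.1 to 112.4 TPM (adjusted p = 7.16e-08). The groups did not overlap for these 4 genes.

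Interferon-linked genes had the highest list median, 1.14, over 13 tested of 25 listed. This rank depended on the filter. Without it the median was 0.54 over 23 genes, below the 0.59 of the lysosomal and autophagy list. Of the 13, 5 rose, beside 4.41% of all genes. Between 1 and 4 rose when 1 library was left out (1 without control replicate 2), and 1 rose after centring. H2-K1, a class I histocompatibility chain, stood at 29.6, 28.7 and 27.2 TPM against 66.7, 106.7 and 85.1 TPM and rose by 1.54 ± 0.39 (limma adjusted p = 0.00533). Of 14 heat shock and chaperone genes 4 rose (28.6%), but 1 rose without control replicate 2, knockout replicate 1 or knockout replicate 3, and after centring 1 rose, 1 fell and the list median was -0.09. Hspb1, a small heat shock protein, stood at 428.8, 434.5 and 399.3 TPM against 923.1, 840.9 and 868.5 TPM (log2 change 1.06 ± 0.12, adjusted p = 7.02e-12).

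Of 35 DNA replication genes 2 rose and 1 fell (8.6%), and of 25 mitosis genes 2 rose (8.0%), shares near the 6.62% of all genes. In this group 0 replication genes rose without control replicate 1 or 2 or knockout replicate 1 or 3. Aurka, a mitotic kinase, stood at 176.8 to 178.1 against 253.7 to 293.1 TPM (limma adjusted p = 0.00417) and Cdc20, an activator of the anaphase-promoting complex, at 486.3 to 567.2 against 695.1 to 786.6 TPM (adjusted p = 0.00345); after centring neither passed (adjusted p = 0.332 and 0.502). Among 25 p53 targets 1 rose and 1 fell (8.0%), again near the share of all genes. Cdkn1a, the p21 cell cycle inhibitor, stood at 120.3, 119.0 and 108.3 TPM against 156.8, 167.7 and 181.8 TPM (log2 change 0.54, adjusted p = 0.00318, and 0.149 after quantile normalization, 0.552 after centring). Glycolysis and hypoxia genes had 4 of 22 higher (18.2%, beside 4.41% of all genes), but 0 without knockout replicate 1 and 0 higher with 1 lower after centring. Of 25 oxidative phosphorylation genes 5 rose and 3 fell (32.0%, beside 6.62% of all genes), and after centring 0 rose and 12 fell. Of 22 sterol genes 0 rose and 0 fell.

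**Figure D5:**
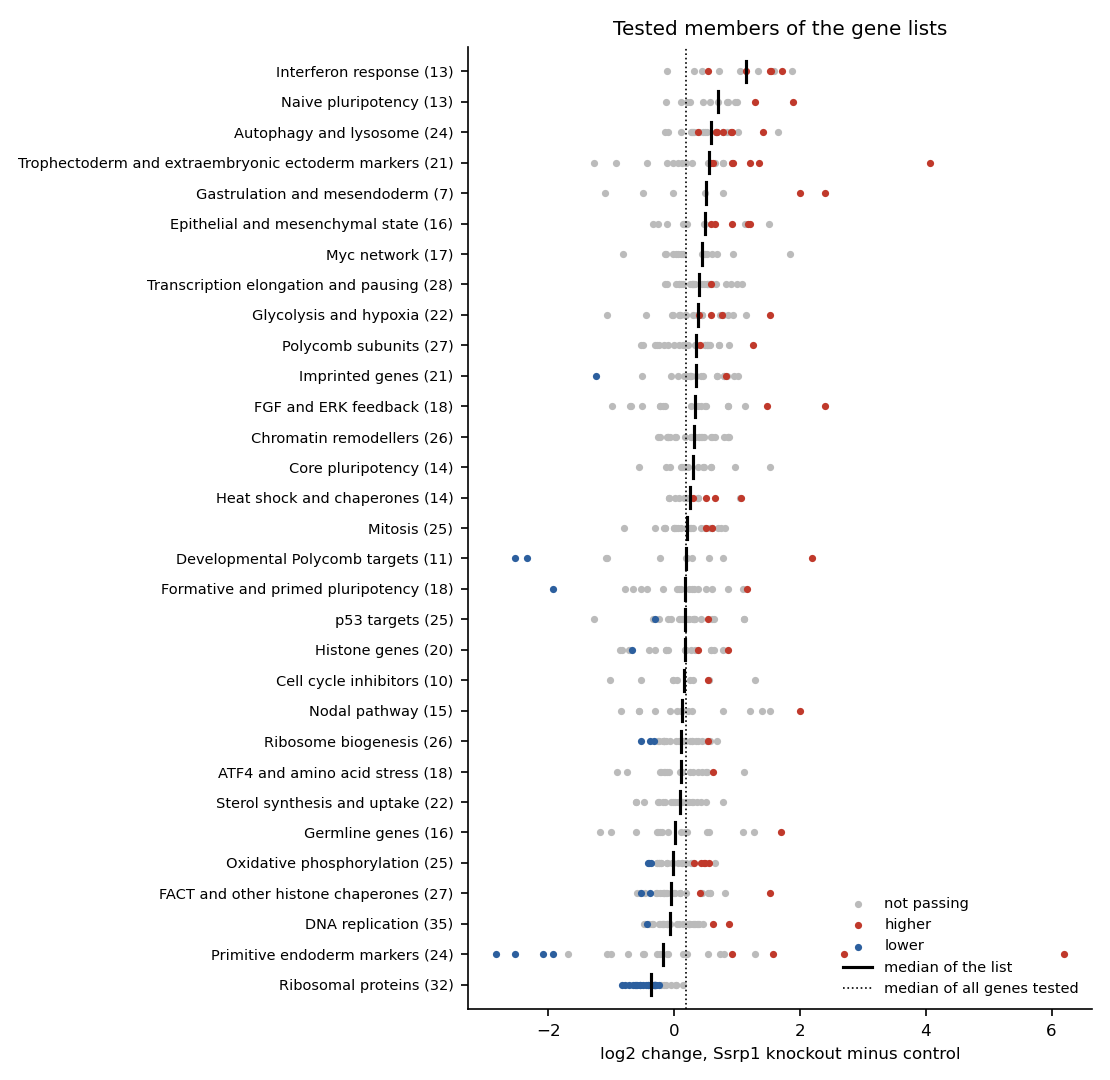
Each row is a gene list with at least 7 tested members (their number in brackets), each point the log2 change of 1 member, each black bar the list median and the dotted line the median of all genes, 0.20. Among tested members the interferon list has the highest median at 1.14, a rank it did not keep without the filter. The ribosomal protein list, of 32 genes with 25 lower, has the lowest at -0.36.

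Set against the mean of the Nelfb, Snai1 and Ss18 knockouts of the same batch, which received guides and culture as well, 1340 of 11814 genes passed (11.3%), 935 higher (7.91%) and 405 lower (3.43%). The 2 comparisons share the Ssrp1 libraries, so they are not independent. Apoa1 stood at a mean of 3.68 TPM in Nelfb, 1.78 in Snai1 and 5.69 in Ss18 knockouts, and was higher in Ssrp1 knockouts by 5.22 (limma adjusted p = 6.29e-16). Sct had means of 0.522, 26.7 and 13.4 TPM there, and Ttr 10.1, 2.34 and 48.7 TPM, and both were higher in Ssrp1 knockouts (adjusted p = 3.25e-21 and 1e-16). Spink1 stood at 0.330 to 23.8 TPM over the 9 libraries (adjusted p = 1.44e-31).

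The falling genes differed widely among those knockouts. Prl3d3 had means of 102.2 TPM in Nelfb, 87.4 in Snai1 and 983.2 in Ss18 knockouts, and Prl3d2 of 118.2, 130.7 and 1672 TPM. Both were lower in Ssrp1 knockouts than in the mean of the 3 (adjusted p = 1.95e-32 and 2.98e-18). Prl5a1 had means of 6.03, 8.22 and 212.4 TPM, beside 8.11 TPM in Ssrp1 knockouts. Lamb1 had means of 107.7, 1.40 and 22.6 TPM and Sox17 of 42.6, 0.310 and 3.87 TPM, with Snai1 knockouts low and Nelfb knockouts high. Differences from any 1 of these knockouts were not tested.

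The ribosomal protein share was 11.7% to 12.5% in Nelfb, 17.4% to 17.9% in Snai1 and 17.6% to 17.7% in Ss18 knockouts, so the Ssrp1 knockouts lay between Nelfb and the other two. Against the mean of the 3 knockouts, 24 of the 84 ribosomal protein genes were lower and 2 higher, beside 3.43% and 7.91% of all genes. Krt8 (means of 891.1, 868.9 and 702.5 TPM), Plac1 (397.6, 334.7 and 599.6 TPM) and Apoe (1947, 1078 and 638.5 TPM) also had means above those of the controls in some of these knockouts. Krt8 was higher in Ssrp1 knockouts (adjusted p = 1.46e-05), and Plac1 and Apoe did not pass (adjusted p = 0.339 and 0.206).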

How the data were processed

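The deposited table holds TPM per gene symbol for 148 libraries, made by the authors. The submitters' processing notes name the mm10 build and the tools HISAT2 (2.2.1), Cufflinks and StringTie (2.2.1); their roles are not given in the sources used here. TPM fix the total of each library, so a rise in abundant transcripts lowers the others. Groups came from the labels. A gene was tested if 3 or more compared libraries held at least 1 TPM. The test was limma (version 3.58.1, R 4.3.3) on log2 values with a pseudocount of 1, with a variance trend, Benjamini-Hochberg adjustment and a threshold of 0.05. All screen libraries were fitted together, with 96 residual degrees of freedom, and the 3 near-identical Aurkb libraries averaged. Adjusted p-values are limma's throughout. The test was checked on simulated data. Genes named by rule were Ssrp1, Supt16, the 12 largest rises and falls that passed without overlap at 5 TPM or more, and up to 4 passing members of each list. The members and the 34 lists were chosen with earlier results of these data known, and 10 families after their values were seen. Gene coordinates are from GENCODE on mm10. Figures were drawn with matplotlib 3.10.9.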

Additional observations from a re-analysis of the deposited data

How the results depend on the processing

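Over 10515 genes, 696 were called against the controls. The count was 1106 with library weights, 323 with a minimum 2-fold change, and between 444 and 628 when each library was left out in turn. Estimation of the library weights stopped before full convergence. The count stayed within 1.5 times 696 when only batch 1 (607) or the 6 compared libraries (992) were fitted. The same held with a pseudocount of 0.1 (572), no filter (889), quantile normalization (689) or no variance trend (656). It also held with libraries centred on their median (837) or batch 7 left out (865), the last 2 added after seeing the data. Similar totals do not mean that the same genes were called. In each of these settings except the last, some of the 696 calls were lost. Most were lost after centring, followed by quantile normalization and the fit of batch 1 alone. Against the other knockouts 1340 were called, 810 with only batch 1 fitted, 706 with library weights, 720 with a minimum 2-fold change and 771 to 968 with 1 Ssrp1 knockout library left out. With the replicate number as a block the counts were 885 and 1609; same-numbered libraries deviated at r of -0.016, -0.017 and -0.001, so the numbers do not pair them. Hspa8, called higher, had a log2 change of -0.043 after centring (adjusted p = 0.888). TPM carry no depth, so the counting error of low genes is unknown.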

Other observations

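Rps18-ps4, a processed copy of a ribosomal protein gene, stood at 249.7, 249.0 and 243.4 TPM in controls and 22.9, 33.6 and 31.3 TPM in Ssrp1 knockouts (limma adjusted p = 5.66e-41), a wider gap than that of any intact ribosomal protein gene. Reads of such a copy cannot always be told from those of its parent gene, and it was named after its values were seen.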
